A study of Mus musculus with 2 samples.

Results

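The Mir181 family consists of the 6 mouse microRNA genes Mir181a-1, Mir181b-1, Mir181a-2, Mir181b-2, Mir181c and Mir181d, which lie as pairs at 3 loci. The genes were taken by name from the GENCODE M21 annotation of the count tables, 6 of 2202 miRNA genes. Their levels were measured by microRNA-seq in the gastrocnemius, a calf muscle, of male B6CASTF1/J mice, an F1 hybrid of the laboratory strain C57BL/6J and the wild-derived strain CAST/EiJ, at 10 days of age. The study holds 2 libraries of this 1 group, labelled as biological replicates 1 and 2, and no treatment or second condition. The labels describe the libraries as coming from separately numbered animals and give both the same donor entry. All comparisons below are therefore between genes, or between these 2 libraries.

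A microRNA gene is transcribed as part of a longer RNA, from which a hairpin is cut out and then trimmed to a short duplex. Either strand of that duplex, the 5p arm or the 3p arm, can be loaded into an Argonaute protein, where bases 2 to 8, the seed, pair with target transcripts and lead to their repression. The miR-181 family is best known from lymphocytes, in which miR-181a raises the sensitivity of T cell receptor signalling and promotes B cell development. In muscle cells, miR-181 is known to increase during myoblast differentiation and to repress the homeobox transcript Hoxa11, and in endothelium miR-181b is known to dampen NF-kappaB signalling.

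The mature sequences show what the genes share and where their reads can be told apart. All 6 genes matched the RefSeq table (build GRCm38.p6), with 12 arms and 10 distinct sequences among them. The 5p arms come in 4 sequences, printed 5′ to 3′ with the seed in capitals:

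miR-181a-5p (Mir181a-1 and Mir181a-2): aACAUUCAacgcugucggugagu

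miR-181b-5p (Mir181b-1 and Mir181b-2): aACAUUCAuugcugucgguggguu

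miR-181c-5p (Mir181c): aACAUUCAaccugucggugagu

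miR-181d-5p (Mir181d): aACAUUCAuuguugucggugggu

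All 4 carry the seed ACAUUCA, and 0 other genes among those with a mature sequence in the RefSeq table carry it. The arms differ behind the seed. With positions counted from 1 at the 5′ end, miR-181a-5p and miR-181b-5p differ by A9U, C10U and A21G, and miR-181b-5p is longer by a base. Between miR-181b-5p and miR-181d-5p the only substitution is C12U. The sequences of miR-181a-5p (23 nt) and miR-181c-5p (22 nt) are 1 edit apart and first differ at position 11.

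The 3p arms, cut from the other side of the hairpin, have a distinct sequence in each of the 6 genes and 4 different seeds. They are shown because they can be assigned to 1 gene where the 5p arms of the same genes cannot:

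miR-181a-1-3p: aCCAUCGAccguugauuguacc

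miR-181a-2-3p: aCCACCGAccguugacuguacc

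miR-181c-3p: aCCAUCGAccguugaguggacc

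miR-181b-1-3p: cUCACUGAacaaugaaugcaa

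miR-181b-2-3p: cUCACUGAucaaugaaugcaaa

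miR-181d-3p: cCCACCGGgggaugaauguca

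The arms miR-181a-1-3p and miR-181a-2-3p differ by U5C, inside the seed, and by U16C. Those of miR-181a-1-3p and miR-181c-3p have the same seed and differ by U16G and U19G. The arms miR-181b-1-3p and miR-181b-2-3p also share a seed, with the substitution A9U behind it. No other gene with a mature sequence in the table carries any of these 3p seeds.

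The identity of the copies runs past the mature 5p arm. From the first base of miR-181a-5p onward, the hairpins of Mir181a-1 and Mir181a-2 are identical for 27 bases and first differ by A28G, so that a read starting there must reach 28 nt to match 1 of them. For Mir181b-1 and Mir181b-2 the identity runs for 24 bases, exactly the length of the mature arm, and the first difference is G25U. These stretches are shown with the differing base in capitals:

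Mir181a-1: aacauucaacgcugucggugaguuuggA

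Mir181a-2: aacauucaacgcugucggugaguuuggG

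Mir181b-1: aacauucauugcugucgguggguuG

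Mir181b-2: aacauucauugcugucgguggguuU

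The longest exact stretch that Mir181a-1 and Mir181a-2 share is 28 nt, and that of Mir181b-1 and Mir181b-2 is 26 nt. Mir181c shares 17 nt at most, with Mir181a-1 and Mir181a-2, and Mir181d shares no stretch of 14 nt or more with any annotated miRNA gene. A stretch of at least 20 nt was shared with another miRNA gene by 4 of the 6 members and by 24.9% of the 313 genes that had at least 10 counts in both libraries, which are called detected here. In the deposited tables a read that matches several places is counted for no gene. In replicate 1 they made up 47.0% of the reads and in replicate 2 48.0%, given as 1 total per library and not by gene. The values of Mir181a-1, Mir181a-2, Mir181b-1 and Mir181b-2 therefore hold only reads that could be placed at 1 of the copies, and how many of their reads were left out was not tested. The values are per hairpin gene and do not separate the arms.

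The libraries held 3999172 and 5062714 reads assigned to miRNA genes on the sense strand. Levels are given as counts per 1000000 assigned counts (CPM), and a count of 0 (up to 3 reads) allows 0.75 CPM in replicate 1, or 0.593 in replicate 2. The muscle miRNA Mir206, a marker of the labelled tissue, stood at 100599 and 87446 CPM. The other muscle genes listed were far lower, with means from 1.67 CPM for Mir133a-2 to 247 CPM for Mir499. Among them Mir1a-2 had a mean of 102 CPM and Mir133b of 38.8 CPM. The Mir1a and Mir133a genes belong to families with several copies, and reads that match several places are not in their counts. Their low values therefore do not show that these mature miRNAs were low in the tissue. Intervals below are exact (Clopper-Pearson, 95%) and cover counting error only, since the tables carry no molecular identifiers. In bulk muscle, fewer cells of a type and less RNA per cell cannot be told apart.

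All 6 genes were detected, and together they took 0.210% ± 0.0015 (SD, n = 2) of the assigned counts. Its summed level was 2090 CPM in the first library and 2112 CPM in the other. The Mir181c and Mir181d locus on chromosome 8 gave the largest part, 57.6% ± 1.5 of the family's counts. The chromosome 2 locus gave 29.2% ± 2.1 and the chromosome 1 locus 13.2% ± 0.57. In each library the order of the 3 loci was the same. The chromosome 1 and 2 values hold only reads that could be placed at 1 copy, whereas Mir181c and Mir181d have no identical copy. The order of the loci in the tissue therefore cannot be read from these shares. In both pairs with copies elsewhere in the genome 1 gene held nearly all counts of its locus, whereas Mir181c and Mir181d were of similar size.

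**Figure D1:**
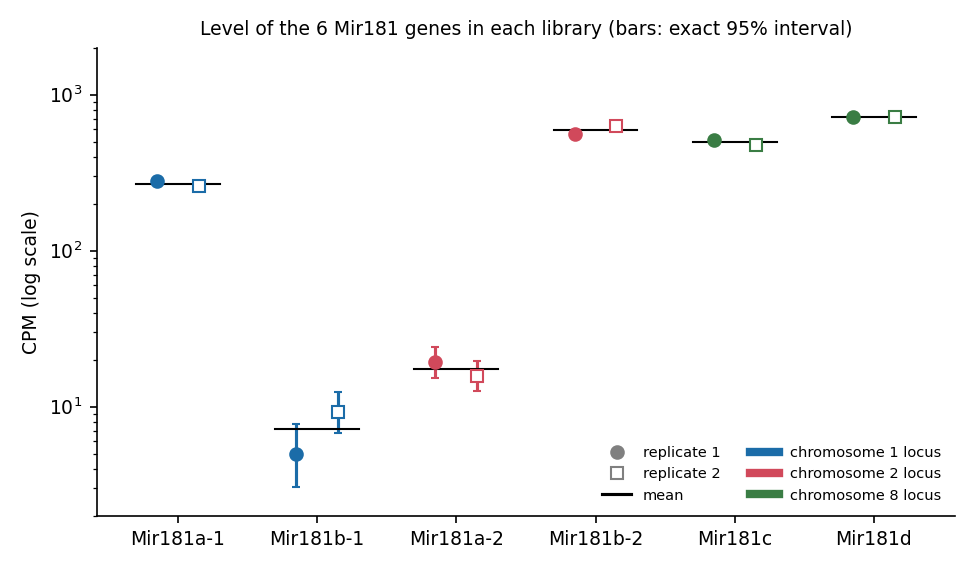
Level of each Mir181 gene in CPM on a log axis, with replicate 1 as filled circles, replicate 2 as open squares, exact 95% intervals as bars, the mean as a black line and colours for the 3 loci. Mir181d, Mir181b-2, Mir181c and Mir181a-1 lie between 260.1 and 717 CPM in both libraries, and Mir181a-2 and Mir181b-1 lie below 20 CPM.

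The chromosome 8 locus lies on the minus strand in an intron of Nanos3, which encodes a germ cell RNA-binding protein and is read from the same strand. Its hairpins are separated by 85 nt (mm10). Mir181d (chromosome 8, 84178716 to 84178787) had 2866 counts in replicate 1 and 3622 in replicate 2, or 717 and 715 CPM (716 ± 0.86). The libraries were nearly equal for this gene, the highest of the family. Mir181c (chromosome 8, 84178873 to 84178961) had 2038 and 2425 counts, or 510 and 479 CPM (494 ± 22). Mir181d exceeded Mir181c in both libraries, by a count ratio of 1.41 in replicate 1 (interval 1.33 to 1.49) and 1.49 in replicate 2 (interval 1.42 to 1.57). Per nucleotide of hairpin, 72 nt for Mir181d and 89 nt for Mir181c, the mean ratio was 1.79. Both 5p arms of this locus are unique in the family, so this ratio is the one within a locus that does not involve identical copies.

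The chromosome 2 locus lies on the plus strand, inside introns of Nr6a1, an orphan nuclear receptor gene on the opposite strand. Mir181b-2 also lies within an exon of Gm44144, an unclassified transcript of that opposite strand, and no annotated gene overlaps the pair on its own strand. Mir181b-2 (chromosome 2, 38853830 to 38853918) had 2243 and 3200 counts, or 561 and 632 CPM (596 ± 50). It was the second highest member in both libraries, and higher in replicate 2 than in replicate 1. Mir181a-2 (chromosome 2, 38852735 to 38852810), which begins the pair 1019 nt upstream, had 77 and 80 counts, or 19.3 and 15.8 CPM (17.5 ± 2.4). Mir181b-2 exceeded Mir181a-2 by a count ratio of 29.1 in replicate 1 (interval 23.2 to 37.1) and 40.0 in replicate 2 (interval 32.0 to 50.6).

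The chromosome 1 locus lies on the plus strand in an intron of the non-coding transcript Gm4258. Mir181b-1 lies wholly, and Mir181a-1 by 11 nt, in an exon of another non-coding RNA of that strand, A430106G13Rik. Mir181a-1 (chromosome 1, 137966455 to 137966541) had 1114 and 1317 counts, or 279 and 260.1 CPM (269 ± 13). Mir181b-1 (chromosome 1, 137966639 to 137966718), 97 nt downstream, had 20 and 47 counts, or 5.00 and 9.28 CPM (7.14 ± 3.03). It was the lowest member in both libraries. Mir181a-1 exceeded Mir181b-1 by a count ratio of 55.7 in replicate 1 (interval 35.9 to 91.5) and 28.0 in replicate 2 (interval 20.9 to 38.3).

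The leading gene was the a copy on chromosome 1 and the b copy on chromosome 2. The Mir181a-1 count was 14.5 times that of Mir181a-2 in replicate 1 and 16.5 times in replicate 2. The Mir181b-2 count was 112 times that of Mir181b-1 in replicate 1 (interval 72.4 to 184) and 68.1 times in replicate 2 (interval 51.1 to 92.9). Summed over its copies, the a type stood at 287 CPM and the b type at 604 CPM, against 494 CPM for Mir181c and 716 CPM for Mir181d. The first pair of sums holds only reads placed at 1 copy, so the order of the 4 mature types in the tissue cannot be read from them.

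**Figure D2:**
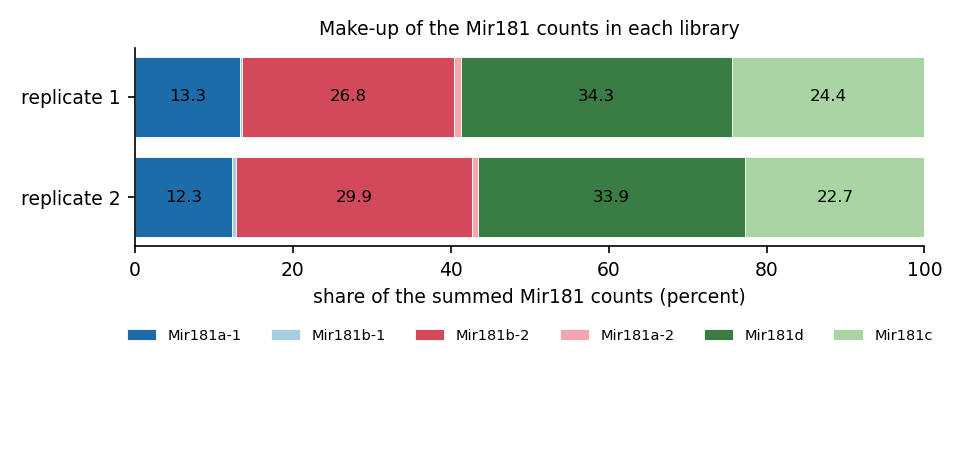
Share of the summed Mir181 counts held by each gene, in percent, with a bar per library and paired shades for the genes of a locus. Mir181d holds 34.3% and 33.9%, Mir181b-2 holds 26.8% and 29.9%, Mir181c holds 24.4% and 22.7%, and Mir181a-1 holds 13.3% and 12.3% in replicates 1 and 2, and the slivers of Mir181b-1 and Mir181a-2 stay below 1%. The a and b genes count only reads that could be placed at 1 copy.

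From high to low, the CPM levels ran Mir181d, Mir181b-2, Mir181c, Mir181a-1, Mir181a-2 and Mir181b-1. For each neighbouring pair in this order, the values of the 2 libraries did not overlap, and the difference of the means was larger than either SD. The steps from Mir181d to Mir181b-2 and from Mir181b-2 to Mir181c were small, 1.20-fold and 1.21-fold. That from Mir181c to Mir181a-1 was 1.84-fold. The step from Mir181a-1 to Mir181a-2 was 15.4-fold and divides the family into a group of 4 and a group of 2, and the last, to Mir181b-1, was 2.45-fold. Per 100 nt of hairpin the order was the same, with Mir181d at 994 ± 1.2 CPM and Mir181b-1 at 8.93 ± 3.79 CPM. With 2 libraries no test of these steps across samples was made, and 2 values show a spread only roughly. The a and b genes hold only reads placed at 1 copy, while Mir181c and Mir181d have no identical copy. The order and steps therefore describe the counts and not the levels of the genes in the tissue.

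Among the detected miRNA genes of the muscle, the 4 leading members lay in the upper part of the range, above 60.1% to 73.2% of those genes. Mir181d stood at rank 84 by mean CPM, Mir181b-2 at rank 93, Mir181c at rank 98 and Mir181a-1 at rank 125. These 4 lay above the median of the detected genes, 135 CPM. Mir181a-2 at rank 236 and Mir181b-1 at rank 271 lay below it, above 24.6% and 13.4% of the detected genes.

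The genes nearest in level to the leading member of each locus were named by rank, since 2 libraries give no profile to correlate. Next to Mir181d were Mir329 (720 ± 102 CPM) above and Mir872 (638 ± 18 CPM) below. The neighbours of Mir181b-2 were Mir1839 (603 ± 4.7 CPM) and Mir455 (589 ± 41 CPM). Those of Mir181a-1 were Mir18 (279 ± 11 CPM) and Mir708 (268 ± 46 CPM). Of these 6 neighbours, all but Mir872 had a mean within an SD, its own or the member's, of the member beside it.

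**Figure D3:**
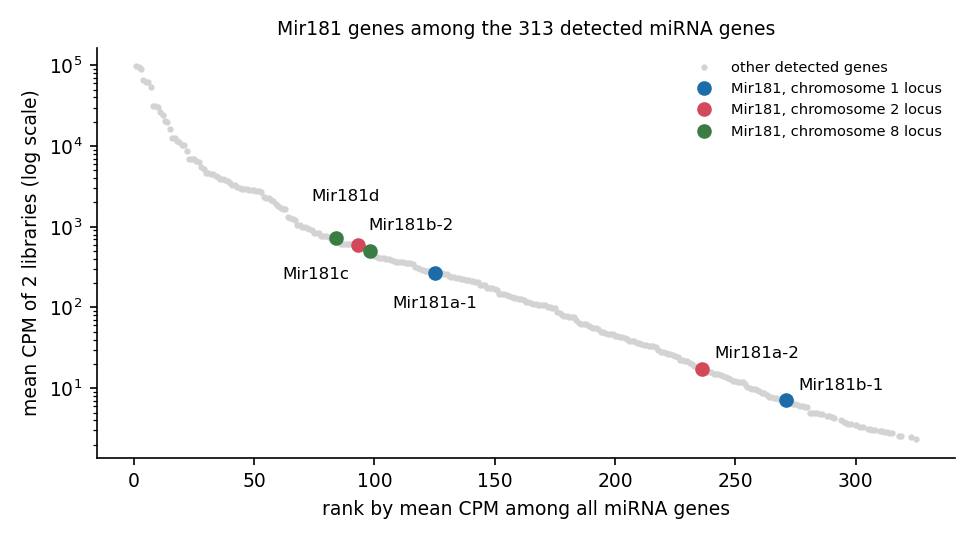
Mean CPM over the 2 libraries on a log axis against the rank by mean CPM, for the 313 detected miRNA genes in grey and the 6 Mir181 genes in the colours of their loci. Mir181d, Mir181b-2, Mir181c and Mir181a-1 lie between ranks 84 and 125, and Mir181a-2 and Mir181b-1 at ranks 236 and 271.

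A large gap between genes with an identical mature arm was not limited to Mir181. Arms were compared among the 1022 genes of the counts with a RefSeq mature sequence inside them. Pairs were kept if their mature arm was identical and in no further gene, with a mean count of 10 or more at the higher gene. This left 25 pairs, the 2 Mir181 pairs among them and no Mir1a or Mir133a pair. Mirlet7c-2 and Mirlet7a-1 are paired by a shared 3p arm and are not copies of 1 type. All ratios hold only reads placed at 1 gene. Over the other 23 pairs the ratio of the higher to the lower gene, averaged over the libraries, ran from 1.06 to 218 with a median of 3.58, where a lower gene at 0 was set to 3 counts (3 pairs). The same gene was the higher one in both libraries in 20 of the 23. Both Mir181 pairs lay above that median. Their exact place among the 25 depends on the value set for the lower genes at 0, since the ratios of those 3 pairs are lower bounds in at least 1 library. The values of the pairs named next were known when they were picked. A ratio above both Mir181 pairs was that of Mir196a-2 to Mir196a-1, 208 in replicate 1 and 228 in replicate 2. Mir92-1 exceeded Mir92-2 by 30.9 and 31.0 times, Mirlet7f-2 exceeded Mirlet7f-1 by 17.4 and 16.2 times, and Mir16-1 exceeded Mir16-2 by 6.27 and 6.04 times.

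Of a list of 44 genes from families with several copies, 42 were found by name and 24 of them were detected. Mir16-1 was highest, at 752 ± 28 CPM, and Mir9-2, Mir124a-2, Mir124a-3 and Mir194-1 had no count in either library. Mir9-2 and Mir194-1 have a mature arm identical to that of another gene, so the missing counts do not show that the arm is absent. Arms were compared only among the 1022 genes with a RefSeq mature sequence inside them. That comparison does not show that the arms of Mir124a-2 and Mir124a-3 are unique, so their missing counts do not show absence either.

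**Figure D4:**
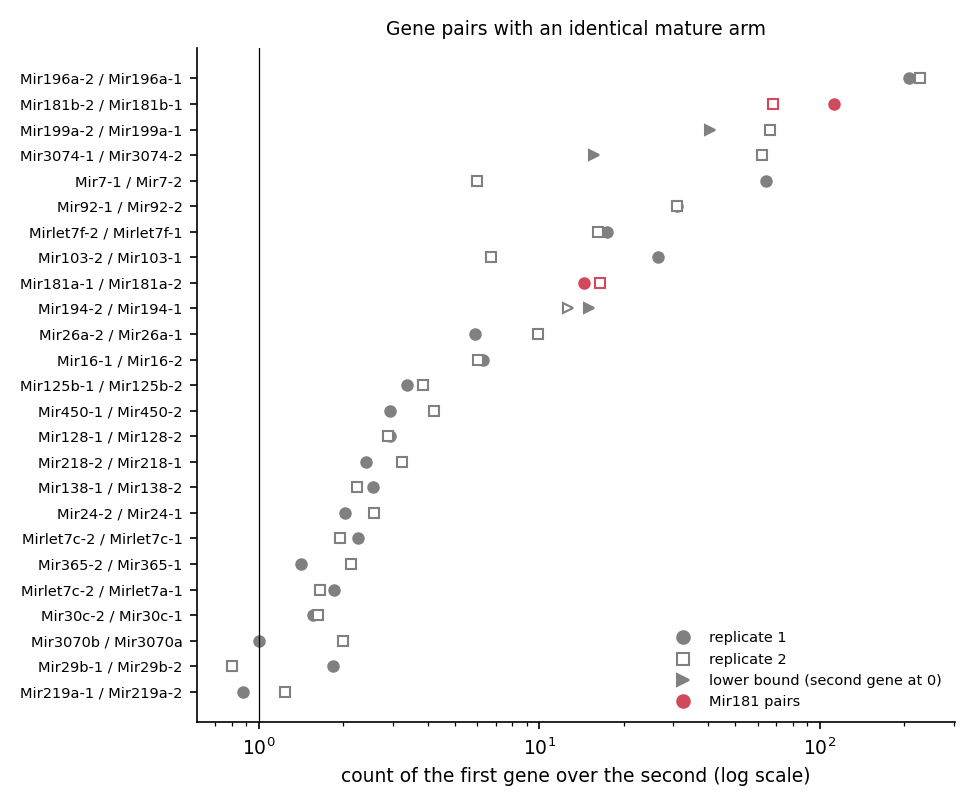
Count of the higher gene over the lower gene, on a log axis, for 25 pairs of genes with an identical mature arm, with replicate 1 as filled circles, replicate 2 as open squares and arrowheads where the lower gene had no count and the value is a lower bound at 3 counts. The Mir181b-2 pair lies at 112 and 68.1 and the Mir181a-1 pair at 14.5 and 16.5, both above the median of 3.58 over the other pairs.

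Between the 2 libraries, Mir181b-2 and Mir181b-1 differed beyond counting error, both being higher in replicate 2, and the other 4 members did not pass the test. The counts of a gene in both libraries were compared by an exact binomial test (two-sided) against library totals scaled by TMM, a scaling that trims extreme genes. Adjustment by Benjamini-Hochberg was over the 332 genes whose mean count reached 10. The comparison is of these libraries, not of conditions, and the test knows counting error only. Of the 6 members 2 passed at 0.05, against 39.5% of all genes tested, so the members' count is near the background. The median absolute log2 ratio was 0.14 for the members and 0.16 for all genes tested.

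After TMM scaling Mir181b-2 stood at 547 CPM in replicate 1 and 648 CPM in replicate 2, a 1.18-fold difference. Its log2 ratio of 0.24 had an interval from 0.17 to 0.32 and an adjusted p of 5.26e-09 in the exact binomial test. Mir181b-1 stood at 4.88 and 9.52 CPM on that scale, 1.95-fold higher in the second library, from 20 and 47 counts. Its log2 ratio of 0.96 had an interval from 0.18 to 1.80 and an adjusted p of 0.0359 in the same exact test. Without the minimum of 10 counts its adjusted p was 0.0741, and over all alternatives it ran from 0.0362 to 0.697. Mir181d (log2 0.07, interval -0.0023 to 0.14), Mir181c (log2 -0.02, interval -0.10 to 0.07), Mir181a-1 (log2 -0.03, interval -0.14 to 0.09) and Mir181a-2 (log2 -0.21, interval -0.68 to 0.26) did not pass. By edgeR's negative binomial exact test, whose dispersion includes the variation of these same libraries, 0 of the 6 members passed, 0 had an unadjusted p under 0.05, and 1.81% of the 332 genes were called.

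**Figure D5:**
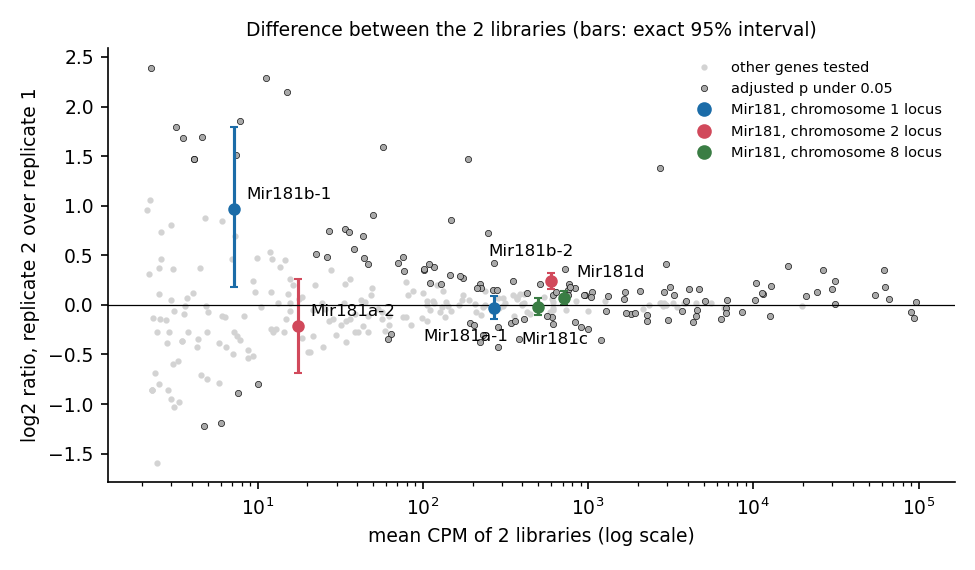
Log2 ratio of replicate 2 over replicate 1 after TMM scaling against mean CPM on a log axis, for the 332 genes tested in grey (outlined where the adjusted p is under 0.05) and the 6 Mir181 genes with exact 95% intervals in the colours of their loci. The intervals of Mir181b-2 and Mir181b-1 lie above 0 and those of the other members include it.

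Markers of other cells were read beside the family, since lymphocytes and endothelium are among its known sites. All 7 leukocyte genes found by name, such as the lymphocyte miRNA Mir150 (111 ± 7 CPM) and the pan-leukocyte Mir142 (77.2 ± 10.1 CPM), summed to 1721 CPM in replicate 1 and 1685 CPM in replicate 2, with 6 of 7 detected. The largest parts of that sum were Mir342 (843 ± 13 CPM) and Mir146 (424 ± 29 CPM). Of the 7 genes, 2 had the higher CPM in replicate 2, Mir142 among them, and 5 the lower. The endothelial pair Mir126a and Mir126b summed to 55784 and 67925 CPM, with Mir126b not detected, and was 1.22-fold higher in replicate 2. The erythroid pair Mir451a and Mir144 was 2.43-fold higher in replicate 2, at 1680 against 4088 CPM, with both detected. The 9 skeletal muscle genes summed to 101176 and 88175 CPM, with 7 detected. Nearly all of that sum was Mir206, lower in replicate 2, while 5 of the 9, among them the slow-fibre miRNAs Mir499 (192 and 302 CPM) and Mir208b (34.3 and 52.7 CPM), had the higher CPM in replicate 2. Reads that match several of the Mir1a or Mir133a genes are not in that sum. The 12 neural and Schwann cell genes summed to 1083 and 1073 CPM, with 6 detected and Mir124a-2, Mir124a-3 and Mir9-2 at 0. The largest parts were Mir338 (447 ± 37 CPM) and Mir128-1 (386 ± 8.3 CPM), and no Mir124a or Mir9 gene had more than 4 counts in a library. The Mir9 genes share an identical mature arm, and reads that match several Mir9 genes or several Mir124a genes are not in their counts. The low counts of these genes therefore do not show that their mature miRNAs are absent. The endothelial and erythroid sums and Mir181b-2 and Mir181b-1 were all higher in replicate 2, and the part of these cells in the difference was not tested. That direction was also the commoner one over all genes tested, with 27.1% called higher and 12.3% lower in replicate 2. The balance rests on the scaling, as plain library totals gave 18.7% higher and 23.8% lower.

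On the strand opposite to the genes, all 6 members had 0 counts in both libraries, which allows up to 3 reads per gene and library. Their counts without regard to strand equalled those on the sense strand. The members of the chromosome 1 and 2 loci are overlapped there by introns or exons of Gm26936, Nr6a1 and Gm44144. The GC content of the members' hairpins ran from 42.5% for Mir181a-1 to 58.4% for Mir181c, around the median of 50.0% over the detected genes. The 4 hairpins with identical copies were all below that median and the chromosome 8 pair above it.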

How the data were processed

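MicroRNA-seq libraries of 2 gastrocnemius samples of 1 group were analysed. The authors deposited raw read counts per miRNA gene, 1 table per library. The assembly was mm10 and the annotation GENCODE M21, per the metadata text deposited with the tables. Which aligner and which counting program made them is not given in the sources used here. The tables have no header. The third column was used, whose total over genes was 5.61 and 5.47 times that of the fourth in replicates 1 and 2. The 4 summary rows (58.7% and 60.7% of all reads) were left out of library totals.

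All 2202 identifiers were found in M21. Mature sequences came from RefSeq (GRCm38.p6), where 1685 of 1738 mature entries lay within a gene of the tables. Shared stretches of 14 to 60 nt were searched among M21 hairpins of annotated miRNA genes only. CPM, exact intervals, the binomial test (checked on simulated counts) and edgeR's exact test were computed, since a quasi-likelihood contrast needs more than 1 library a side, with Python 3.11.15, scipy 1.17.1, R 4.3.3 and edgeR 4.0.16. Alternatives were DESeq2 1.42.0 size factors, plain totals, unstranded counts, other denominators, hairpin length, no count filter and each library alone. P-values measure only the spread between, or counting error in, these samples.

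Named genes are the members, the genes next in rank to the leading member of each locus, the highest and lowest of a list of multi-copy genes, and cell type markers. Other copy pairs were picked with their values known. The members and lists were chosen with earlier results of these data known.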

Additional observations from a re-analysis of the deposited data

Results flagged for a closer look

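A large class of reads lies outside the gene counts. Reads that matched several genomic places made up 47.0% of replicate 1 and 48.0% of replicate 2, more than the share assigned to miRNA genes. The mature 5p arms of Mir181a-1 with Mir181a-2 (23 nt), and of Mir181b-1 with Mir181b-2 (24 nt), are identical. A read of exactly such an arm matches both copies and so belongs to that class. Starting at its first base, a read must reach 28 nt for the a copies, or 25 nt for the b copies, to match 1 of them. The part of Mir181 in that class was not tested.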

How the results depend on the processing

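Other denominators changed the levels but not their order. For the family and for the chromosome 1, 2 and 8 loci, the levels were 2564, 337, 749 and 1477 CPM with unstranded counts, 847, 111, 247 and 488 per 1000000 of all reads, and 2562, 319, 693 and 1550 CPM when summed per 100 nt of hairpin. With 1 library left out, the value is that of the other library, and the family ran from 2090 to 2112 CPM. With 2 libraries this says nothing about stability. The ratio of Mir181d to Mir181c was 1.79 per nt of hairpin. Plain library totals turned the ratio of Mir181d between the libraries from 0.07 to -0.0025 (log2). The number of differing genes fell from 131 to 6 with edgeR's negative binomial exact test. The number of differing members, 2 as reported, was 1 with no count filter and 0 with the negative binomial test, where the adjusted p was 0.697 for Mir181b-1 and 1 for Mir181b-2. Over the alternatives the other scalings and the unstranded column kept both calls. A difference between the libraries cannot be recomputed with 1 library left out. No paired analysis was possible because the study has 1 group. Mir181b-1, with 20 and 47 counts, is the member whose level is least precise.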
